A study of Mus musculus with 7 samples.

Results

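The 39 genes described here copy DNA in S phase or supply and license that copying: origin licensing and helicase factors, polymerases, the sliding clamp and its loader, lagging-strand enzymes, nucleotide synthesis, chromatin and histone factors, and regulators of entry into S phase. They were taken from a list of genes by role, and that list was chosen with earlier results of these data known. Each gene was read by the probe set with exactly 1 gene symbol that had the highest mean over the 7 arrays. Of the 39, 38 had such a probe set, and all 38 reached the intensity of 82 in 2 or more arrays that a gene needed to be tested, among 10874 genes tested of 18193. Chaf1a, the large subunit of a histone chaperone, had no probe set of this kind and is not measured here. Nearest to the threshold were Ccne2, at 72.0 and 74.3 in CD4SP, and Pola1, at 59.8 in 1 CD4SP array, and both passed it in the NKT arrays. Ccne2 was thus tested only through the groups where it is high, and the counts over the 38 genes below include it.

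Before S phase, the origin recognition complex, Cdc6 and Cdt1 load the Mcm helicase onto DNA as an inactive ring. Kinases and Cdc45 and GINS then activate it, and primase, polymerases, the PCNA clamp and the ligase copy both strands, the lagging one in pieces. Many of these genes are transcribed under E2F at the end of G1, so their mRNA is a common measure of cycling, and early thymic natural killer T (NKT) cells are known for a burst of division before they mature.

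The arrays, Affymetrix Mouse Genome 430 2.0, were hybridised with RNA from thymus cells of mice with a C57BL/6J background, 4 to 6 weeks old. One group was stage 1 NKT from mice transgenic for the Valpha14 TCR, a T cell receptor chain typical of NKT cells (n = 2), sorted as CD1d tetramer-positive, CD24 low, CD44- and NK1.1-. Another was the same sort from mice with that transgene and the Luxoid mutation, which leaves them without PLZF, the transcription factor encoded by Zbtb16 (n = 3). The last was conventional CD4+ CD8- thymocytes (CD4SP), taken from wild-type mice (n = 2), which carry neither the transgene nor the mutation. Cells were pooled from several mice for a sample, and the promoter of the transgene is not given in the sources used here. The labels call the samples biological replicates.

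Stage 1 NKT and CD4SP therefore differ in both cell type and transgene, and the contributions of the 2 cannot be told apart. Array medians were 79.6 to 83.7, and arrays of 1 group correlated at r = 0.984 to 0.992. One label of the CD4SP samples repeats the NKT sort, while titles and sources name CD4SP, which were followed. Zbtb16 read 2751 and 3488 in stage 1 NKT, 1857, 2774 and 2645 in Luxoid NKT and 87.3 and 61.8 in CD4SP, so the CD4SP arrays stood apart as their titles have it. The Luxoid arrays did not lack the transcript (log2 difference -0.38 ± 0.23, mean ± SE, limma's adjusted p = 0.607), so this probe set does not check the loss of the protein. Cd24a, which the NKT sort selects against, was at 14.1 to 57.1 in the NKT arrays and at 239 and 246 in CD4SP. Y-linked Kdm5d ranged from 6.49 to 11.7 in array 1 of every group and from 758 to 2331 elsewhere, so the sex of the pools varied within each group. With 2 or 3 arrays a group, precision is limited.

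Promoters are shown first because the genes moved together and many are textbook E2F targets. The RefSeq table (GRCm38.p6) held 34 of the 39 genes, as windows from 250 bases before to 50 after the start of transcription. Entries were not held for Ccne2, Gins1, Gins2, Mcm4 and Rfc2. The windows were searched on both strands for the E2F letters TTTCCCGC, TTTGGCGC, TTTCGCGC and TTTGCCGC and for the CCAAT box. The E2F letters stood in 12 of 34 genes (35.3%), counting any window of a gene, against 2.6% of all 27025 genes. By windows it was 12 of 39 (30.8%), against 2.26% of all 32851. A CCAAT box stood in 21 of 34 genes (61.8%), against 41.1% of all genes, and in 59.0% of the windows, against 37.4% of all windows. These are matches of letters and are given as a description.

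The windows printed are those of the 4 genes with E2F letters and the largest differences among those called in Luxoid NKT against CD4SP, and of 1 without E2F letters. Each runs 5′ to 3′ on the gene's strand. Capitals mark E2F letters or a CCAAT box, which reads ATTGG where it lies on the opposite strand.
Uhrf1, chr17:56304063-56304362, plus strand: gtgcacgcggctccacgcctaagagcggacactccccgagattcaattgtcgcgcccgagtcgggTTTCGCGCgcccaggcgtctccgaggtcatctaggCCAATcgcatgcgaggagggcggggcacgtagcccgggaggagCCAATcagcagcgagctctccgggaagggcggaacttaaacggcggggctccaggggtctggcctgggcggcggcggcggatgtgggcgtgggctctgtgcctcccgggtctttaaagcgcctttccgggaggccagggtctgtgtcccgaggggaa
Cdc6, chr11:98907901-98908200, plus strand: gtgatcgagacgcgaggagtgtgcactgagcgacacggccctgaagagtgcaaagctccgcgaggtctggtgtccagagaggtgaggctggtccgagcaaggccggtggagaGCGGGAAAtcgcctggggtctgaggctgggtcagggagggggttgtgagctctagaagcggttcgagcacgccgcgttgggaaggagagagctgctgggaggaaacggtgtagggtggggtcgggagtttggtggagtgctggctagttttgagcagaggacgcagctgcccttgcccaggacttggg
Pola1, chrX:93632106-93632405, minus strand: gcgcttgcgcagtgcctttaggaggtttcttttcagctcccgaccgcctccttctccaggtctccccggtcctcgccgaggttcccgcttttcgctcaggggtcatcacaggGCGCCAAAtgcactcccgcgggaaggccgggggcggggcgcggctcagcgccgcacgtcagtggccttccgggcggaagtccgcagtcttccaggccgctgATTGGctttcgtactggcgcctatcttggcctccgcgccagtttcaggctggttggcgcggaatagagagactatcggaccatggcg
Mcm3, chr1:20820263-20820562, minus strand: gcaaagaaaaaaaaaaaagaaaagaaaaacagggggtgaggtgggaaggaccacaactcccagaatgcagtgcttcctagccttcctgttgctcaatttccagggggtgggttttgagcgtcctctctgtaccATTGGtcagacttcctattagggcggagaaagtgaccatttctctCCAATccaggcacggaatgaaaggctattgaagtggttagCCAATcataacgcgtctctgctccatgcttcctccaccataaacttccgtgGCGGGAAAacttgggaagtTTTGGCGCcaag
Mcm10, chr2:5012742-5013041, minus strand: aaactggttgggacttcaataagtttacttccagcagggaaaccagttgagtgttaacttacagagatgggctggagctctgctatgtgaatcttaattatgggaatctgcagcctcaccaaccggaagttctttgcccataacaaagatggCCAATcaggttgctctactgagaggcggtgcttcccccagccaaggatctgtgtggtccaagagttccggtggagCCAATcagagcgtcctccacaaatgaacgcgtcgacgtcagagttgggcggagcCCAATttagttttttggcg

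Uhrf1 had 2 windows, and the window printed was picked because it holds E2F letters. It held TTTCGCGC from base -185, counted from the start of transcription, and CCAAT boxes from bases -150 and -107. Cdc6 and Pola1 each held E2F letters on the opposite strand from base -138, and Cdc6 had no CCAAT box. In Mcm3 both sets of E2F letters lay after the start, from bases 20 and 39, and 3 CCAAT boxes lay before it. Mcm10 held 3 CCAAT boxes and no E2F letters. Its window ends in tttggcg, the beginning of TTTGGCGC, so a match that crosses the edge could not be seen. Among the genes with a window, E2F letters stood in 9 of the 21 called in Luxoid NKT against CD4SP and in 3 of the 13 not called or not measured there. No test was made of that difference.

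The replication genes were higher in both NKT groups than in CD4SP thymocytes, and none was called different between the NKT groups. A gene is called where limma's adjusted p (Benjamini-Hochberg over all 10874 genes) is under 0.05. Against CD4SP, 24 of 38 genes (63.2%) were called higher in stage 1 NKT, where the background over all genes tested was 10.8%, and 0 were called lower, against 4.08%. In Luxoid NKT 24 of 38 were again called higher, against 11.3% of all genes, and 0 lower, against 5.51%. At an unadjusted p under 0.05 there were 32 of 38 in stage 1 NKT, against 29.1% of all genes, and 30 of 38 in Luxoid NKT, against 29.7%, all of them higher. The arrays did not overlap with CD4SP, from above, for 33 genes in stage 1 NKT (36.6% of all genes) and 32 in Luxoid NKT (25.4%). The median log2 difference was 0.74 in stage 1 NKT (all genes tested, 0.064), with 36 of 38 above 0, and 0.79 in Luxoid NKT (all genes, 0.021), with 37 of 38 above 0.

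The 2 comparisons share the CD4SP arrays, so their calls are set side by side and not counted as independent. Called in both were 21 genes, with Cdt1, Pold1 and Fen1 called in stage 1 NKT alone and Mcm7, Rfc3 and Ccne1 in Luxoid NKT alone. Over all genes tested, calls in both comparisons were not counted. Neither comparison called Orc1, Mcm4, Cdc45, Pcna, Rfc1, Rfc2, Rfc4, Rfc5, Rpa1, Tk1 or Chaf1b. In 32 of 38 genes all 5 NKT arrays stood above both CD4SP arrays, against 21.4% of all genes tested. The exceptions were Orc1, Mcm4, Cdc45, Rfc2, Tk1 and Chaf1b. Leaving out 1 array lowered the count of 24 in stage 1 NKT to 10 or 12 without either NKT array and to 14 or 8 without either CD4SP array. Calls of all genes fell in the same fits, from 10.8% higher to 4.18%, 5.36%, 6.04% and 5.03%. In Luxoid NKT it stayed at 19 or more except without CD4SP array 2, where 12 were called (all genes, 5.82%). In these bulk samples, a smaller share of cells in S phase and less of each mRNA per cell cannot be told apart.

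**Figure D1:**
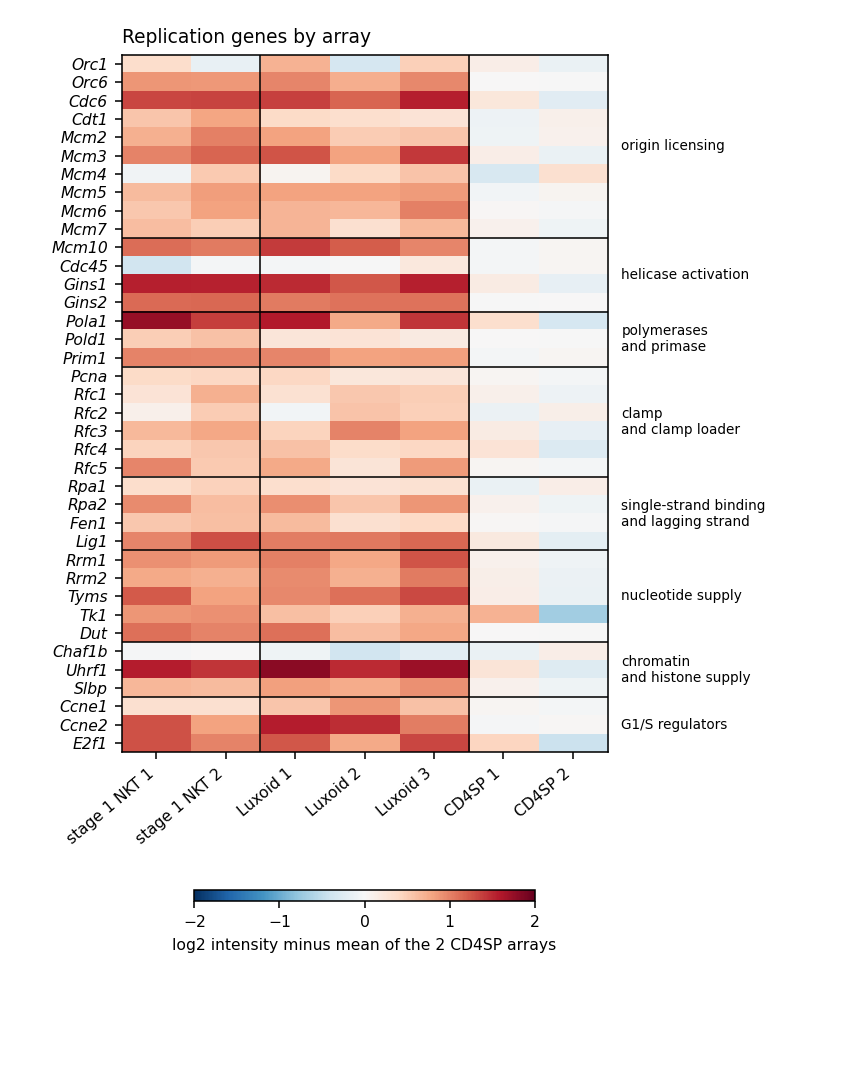
Heat map of the 38 measured genes (rows, grouped by role) in the 7 arrays (columns), with colour giving the log2 intensity minus the mean of the 2 CD4SP arrays. The 5 NKT columns are red in most rows, and Cdc45, Chaf1b, Mcm4, Orc1 and Rfc2 are among the palest or mixed ones.

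Among the origin licensing genes, 7 of 10 were called higher in each comparison, against 10.8% of all genes in stage 1 NKT and 11.3% in Luxoid NKT. Cdc6, the ATPase that helps to load the helicase, read 684 and 696 in stage 1 NKT, 705, 611 and 801 in Luxoid NKT and 319.8 and 231 in CD4SP. All 5 NKT arrays were above both CD4SP arrays, by a log2 difference of 1.34 ± 0.20 (SE, adjusted p = 0.00312, 2.54-fold) in stage 1 NKT and 1.37 ± 0.18 (adjusted p = 0.00135, 2.58-fold) in Luxoid NKT. Orc6, a subunit of the origin recognition complex, was at 705 and 698, at 751, 629 and 739, and at 384 and 379 in the same order of groups. Its differences of 0.88 ± 0.15 (adjusted p = 0.00606) and 0.88 ± 0.14 (adjusted p = 0.00302) were alike in size. Orc1, the largest subunit of that complex, ranged from 115 to 235 in the NKT arrays and was at 159.9 and 133 in CD4SP, so the groups overlapped.

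Cdt1, which brings the helicase to the origin and is degraded in S phase, was at 1572 and 1850.0 in stage 1 NKT, 1402, 1359.7 and 1299.6 in Luxoid NKT and 1004 and 1144 in CD4SP. The 3 groups did not overlap, with Luxoid NKT in between. Its difference from CD4SP was 0.67 ± 0.15 in stage 1 NKT (adjusted p = 0.0217) and 0.34 ± 0.14 in Luxoid NKT (adjusted p = 0.150).

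The Mcm genes encode the 6 subunits of the helicase ring. Mcm3 read 2070.2 and 2334 in stage 1 NKT, 2479, 1820.1 and 2786 in Luxoid NKT and 1139 and 950.3 in CD4SP. By the brightest probe set of each gene it had the largest difference of the 6, 1.08 ± 0.22 (adjusted p = 0.0127) in stage 1 NKT and 1.16 ± 0.20 (adjusted p = 0.00496) in Luxoid NKT, although a dimmer Mcm6 set gave 1.50 and 1.30. Mcm2 was at 879 and 1074, at 934, 763 and 788, and at 503 and 569.9, which gave 0.86 ± 0.17 (adjusted p = 0.0130) and 0.62 ± 0.16 (adjusted p = 0.0303). Mcm5 read 2729 and 3152, then 3081, 3082 and 3190.5, and 1701 and 1829 in CD4SP. The tight values of Mcm5 gave 0.73 ± 0.15 (adjusted p = 0.0118) and 0.82 ± 0.13 (adjusted p = 0.00374). Mcm6 read 4826 and 5789.6 in stage 1 NKT, 5311, 5222 and 6630.1 in Luxoid NKT and 3378 and 3249 in CD4SP, again without overlap (0.67 ± 0.18, adjusted p = 0.0350, and 0.78 ± 0.16, adjusted p = 0.0118). Mcm7 was at 4969 and 4534, at 5188, 4048 and 5073, and at 3415 and 3057. Its difference of 0.55 ± 0.17 in stage 1 NKT missed the threshold (adjusted p = 0.0652) and that of 0.55 ± 0.16 in Luxoid NKT passed it (adjusted p = 0.0441). With the array number as a block, which gives Luxoid array 3 no weight, Mcm7 was called in stage 1 NKT too (adjusted p = 0.0245).

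Mcm4 was the helicase subunit called in neither comparison by its brightest probe set, at 1499 and 2264 in stage 1 NKT, 1647, 2060.3 and 2359 in Luxoid NKT and 1262 and 1979.7 in CD4SP. Arrays of every group overlapped, and the arrays numbered 1 were the lowest of each. A second Mcm4 probe set read 1544 and 1350.2, then 1489 and 1216 and 1428, and 928 and 895 in CD4SP, without overlap. With every probe set tested singly, a choice made after the data were seen, that set was called at 0.66 ± 0.17 (adjusted p = 0.0377) and 0.59 ± 0.15 (adjusted p = 0.0370).

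Stage 1 NKT calls of Cdt1, Mcm2, Mcm3, Mcm5 and Mcm6 were lost in at least 3 of the 4 fits that left out stage 1 NKT array 1 or 2 or CD4SP array 1 or 2 (adjusted p 0.0512 to 0.178), while Orc6 and Cdc6 kept theirs. In Luxoid NKT, Mcm7 lost its call without any array but Luxoid array 2 (adjusted p 0.0721 to 0.246). Mcm2 lost it without either CD4SP array or Luxoid array 1 or 3 (0.0582 to 0.178), Mcm6 without either CD4SP array (0.0674 and 0.0905) and Mcm3 without CD4SP array 2 (0.0604).

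Helicase activation genes gave 3 calls of 4 in each comparison (all genes, 10.8% and 11.3%), among them the one with the least spread within groups. Gins1, a subunit of the GINS complex that holds the active helicase together, read 672 and 666 in stage 1 NKT, 648, 547 and 678 in Luxoid NKT and 259 and 205 in CD4SP. The lowest NKT array was well above the highest CD4SP array, and the differences were 1.54 ± 0.18 (adjusted p = 0.000767, 2.91-fold) and 1.43 ± 0.16 (adjusted p = 0.000551, 2.70-fold). Gins2, another subunit of that complex, was at 987 and 995, at 922, 959 and 959, and at 449.7 and 451. Its arrays agreed more closely within groups than those of any other of the 38 genes, with a pooled SD of 0.0237 on the log2 scale against a median of 0.174, and it differed by 1.14 ± 0.13 (adjusted p = 0.000942) and 1.07 ± 0.12 (adjusted p = 0.000625). Mcm10, which helps to activate the helicase and binds primase-polymerase, read 425 and 399 in stage 1 NKT, 515, 450.2 and 384 in Luxoid NKT and 189 and 201 in CD4SP (1.08 ± 0.17, adjusted p = 0.00421, and 1.20 ± 0.16, adjusted p = 0.00121). All 3 kept their calls without any single array.

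Cdc45, the remaining helicase cofactor, gave a value below 0 by its brightest probe set in stage 1 NKT. It read 130.3 and 164 there, 164, 167 and 195 in Luxoid NKT and 164 and 174 in CD4SP, and the difference of -0.21 ± 0.17 was not called (adjusted p = 0.460). A second Cdc45 probe set read 200.9 and 177, then 210.5, 170.3 and 198, and 115 and 95.5 in CD4SP, with all NKT arrays above both CD4SP arrays. Tested singly, it was called at 0.84 ± 0.18 (adjusted p = 0.0194) and 0.87 ± 0.16 (adjusted p = 0.00962), so the direction of Cdc45 in stage 1 NKT depends on the probe set.

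**Figure D2:**
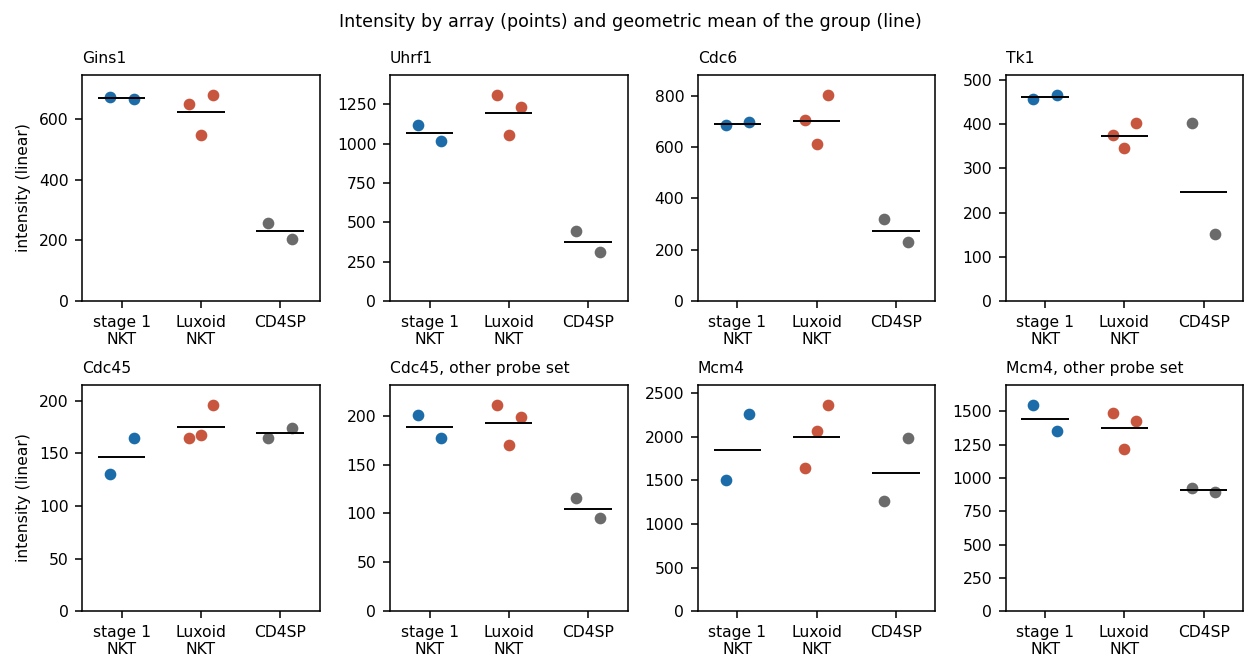
Linear intensity (y axis, from 0) in each array (points) with the geometric mean of each group (line) for 4 genes by their brightest probe set, and for Cdc45 and Mcm4 by 2 probe sets each. Gins1, Uhrf1 and Cdc6 separate the NKT groups from CD4SP, the 2 CD4SP arrays of Tk1 lie far apart at 403 and 152, and the 2 probe sets of Cdc45 differ in pattern.

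All 3 genes of the polymerases and primase were called higher in stage 1 NKT (all genes, 10.8%), and 2 of 3 in Luxoid NKT (11.3%). Pola1, the catalytic subunit of the polymerase that starts each strand, read 254 and 197 in stage 1 NKT, 227, 128 and 204 in Luxoid NKT and 96.0 and 59.8 in CD4SP. All NKT arrays were above CD4SP, with wide spread within groups, and the difference was 1.56 ± 0.32 in stage 1 NKT (adjusted p = 0.0127). Since 1 of the 2 CD4SP arrays was under 82, the size of this difference rests on a dim value. In Luxoid NKT it was 1.26 ± 0.29 (adjusted p = 0.0193). Prim1, the catalytic subunit of primase, was tighter, at 1216 and 1206, at 1201, 1066 and 1081, and at 592 and 631 (0.99 ± 0.14, adjusted p = 0.00270, and 0.87 ± 0.13, adjusted p = 0.00253). Pold1, the catalytic subunit of the lagging-strand polymerase, read 1432 and 1539 in stage 1 NKT, 1212, 1236 and 1152 in Luxoid NKT and 1021 and 1019 in CD4SP. As with Cdt1, the 3 groups did not overlap, and the difference from CD4SP was 0.54 ± 0.14 in stage 1 NKT (adjusted p = 0.0329) and 0.23 ± 0.13 in Luxoid NKT (adjusted p = 0.260).

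Prim1 kept its calls without any single array. Pold1 lost its call in stage 1 NKT without either array of that group or of CD4SP (adjusted p 0.111 to 0.149), and Pola1 without stage 1 NKT array 1 (0.107) or CD4SP array 2 (0.0996). In Luxoid NKT Pola1 lost it without Luxoid array 3 (0.0620) or CD4SP array 2 (0.175).

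Of the clamp and clamp loader, limma called 0 of 6 genes higher in stage 1 NKT (all genes, 10.8%) and 1 of 6 in Luxoid NKT (11.3%). In each comparison 5 of the 6 had an unadjusted p under 0.05, against 29.1% and 29.7% of all genes, and 5 of the 6 stood above CD4SP without overlap, against 36.6% and 25.4%. Their differences were all above 0, from 0.30 to 0.75 in both comparisons, with a median of 0.49 in stage 1 NKT and 0.45 in Luxoid NKT (all genes tested, 0.064 and 0.021). Rfc3, a small subunit of the clamp loader, read 357 and 387 in stage 1 NKT, 308, 454 and 396 in Luxoid NKT and 253 and 203 in CD4SP. Its groups did not overlap with CD4SP, and the difference was 0.71 ± 0.21 in stage 1 NKT (adjusted p = 0.0534) and 0.75 ± 0.19 in Luxoid NKT (adjusted p = 0.0295). Some other settings called Rfc3 in stage 1 NKT, such as the mean of its probe sets (0.90, limma's adjusted p = 0.00487). The Luxoid call was lost with the array number as a block (adjusted p = 0.0573) and without any array but Luxoid array 1 (0.0543 to 0.214).

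Pcna, the sliding clamp, ranged from 6115 to 6967 in the NKT arrays, above 5329 and 5094 in CD4SP, but the differences were small (0.40 ± 0.14, adjusted p = 0.107, and 0.30 ± 0.13, adjusted p = 0.167). Rfc5, another small loader subunit, differed by 0.75 ± 0.23 in stage 1 NKT (adjusted p = 0.0669), and was called there with the array number as a block (0.0169). It was also called there in some other settings, such as a fit of only the 2 groups compared (0.0400). Rfc1, Rfc2 and Rfc4, the other loader subunits, differed by 0.30 to 0.49 and were called in neither comparison. Both CD4SP arrays lay under all NKT arrays for Rfc1 and Rfc4 and overlapped with them for Rfc2.

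The single-strand binding and lagging-strand genes gave 3 calls of 4 in stage 1 NKT (all genes, 10.8%) and 2 of 4 in Luxoid NKT (11.3%). Lig1, the ligase that joins lagging-strand fragments, read 1137 and 1402 in stage 1 NKT, 1172, 1194 and 1276 in Luxoid NKT and 659 and 503 in CD4SP. It was about 2-fold higher in every NKT array than in CD4SP (1.13 ± 0.18, adjusted p = 0.00447, and 1.07 ± 0.17, adjusted p = 0.00298). Rpa2, a subunit of the protein that coats single strands, was at 1281 and 1018, at 1264, 973 and 1227, and at 704 and 624 (0.79 ± 0.19, adjusted p = 0.0264, and 0.79 ± 0.17, adjusted p = 0.0157). Fen1, the nuclease that trims fragment ends, read 4618 and 4839.8 in stage 1 NKT, 4922, 3972 and 4209 in Luxoid NKT and 3237 and 3136 in CD4SP. It passed the threshold in stage 1 NKT (0.57 ± 0.16, adjusted p = 0.0422) and missed it in Luxoid NKT (0.45 ± 0.14, adjusted p = 0.0651). Rpa1, the largest subunit of that coat, was at 3539 and 3834, at 3504, 3367 and 3447, and at 2534 and 3053, without overlap but with differences that were not called (0.41 ± 0.15, adjusted p = 0.116, and 0.31 ± 0.14, adjusted p = 0.181).

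Lig1 kept its calls without any single array. In stage 1 NKT Rpa2 and Fen1 lost theirs without either array of that group or of CD4SP (adjusted p 0.0540 to 0.180), and Fen1 also without Luxoid array 3 (0.0575). In Luxoid NKT Rpa2 lost it without CD4SP array 1 (0.0624) or 2 (0.128).

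Of the nucleotide supply genes, 4 of 5 were called higher in each comparison (all genes, 10.8% and 11.3%). Dut, which removes dUTP, read 3819 and 3512 in stage 1 NKT, 3816, 2730.3 and 3022 in Luxoid NKT and 1781 and 1762 in CD4SP. The NKT arrays lay well above CD4SP (1.05 ± 0.18, adjusted p = 0.00647, and 0.83 ± 0.17, adjusted p = 0.0103). Tyms, thymidylate synthase, was at 305 and 227, at 252, 279 and 327, and at 143 and 119 (1.02 ± 0.20, adjusted p = 0.0119, and 1.13 ± 0.18, adjusted p = 0.00397). Of its 4 probe sets 3 were called in each comparison when tested singly, and the other differed by 0.33 ± 0.56 and 0.12 ± 0.51.

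Rrm1 and Rrm2 encode the large and small subunits of ribonucleotide reductase, the enzyme that makes deoxynucleotides. Rrm1 read 2255 and 2163 in stage 1 NKT, 2404, 2051 and 2862 in Luxoid NKT and 1272 and 1128 in CD4SP (0.88 ± 0.18, adjusted p = 0.0138, and 1.01 ± 0.17, adjusted p = 0.00410). Rrm2 was at 3819 and 3692, at 4324, 3670.5 and 4638, and at 2429.7 and 2081 (0.74 ± 0.17, adjusted p = 0.0201, and 0.90 ± 0.15, adjusted p = 0.00480). Its other probe sets, which were dimmer, gave larger differences, 1.55 and 1.11 in stage 1 NKT and 1.79 and 1.40 in Luxoid NKT. Both subunits stood above CD4SP in all 5 NKT arrays.

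Tk1, thymidine kinase of the salvage route, read 457 and 465 in stage 1 NKT, 375, 346 and 404 in Luxoid NKT and 403 and 152 in CD4SP. The CD4SP arrays were far apart, so that Tk1 had the largest spread within groups of the 38 (pooled SD 0.503 on the log2 scale) and was not called (0.90 ± 0.37, adjusted p = 0.148, and 0.59 ± 0.34, adjusted p = 0.285). Without CD4SP array 1 it was called in both comparisons (1.60, adjusted p = 0.00379, and 1.30, adjusted p = 0.00560).

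In stage 1 NKT, Rrm1 and Rrm2 lost their calls without either array of that group or of CD4SP (adjusted p 0.0527 to 0.128), and Dut and Tyms without stage 1 NKT array 1 (0.0595 and 0.0996) or CD4SP array 2 (0.0502 and 0.0935). In Luxoid NKT, Dut lost it without CD4SP array 1 (0.0677) or 2 (0.0772), and Rrm2 (0.0559) and Tyms (0.0511) without CD4SP array 2.

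Of the chromatin and histone supply genes with a probe set, 2 of 3 were called higher in each comparison (all genes, 10.8% and 11.3%). Uhrf1, which guides DNA methylation to newly copied strands, read 1118 and 1018 in stage 1 NKT, 1307, 1052 and 1230.2 in Luxoid NKT and 449 and 315 in CD4SP. It was higher in all NKT arrays, and its difference in Luxoid NKT (1.66 ± 0.18, adjusted p = 0.000516, 3.17-fold) was the largest of the 38 there by the probe sets used. In stage 1 NKT it was 1.50 ± 0.20 (adjusted p = 0.00182, 2.84-fold), and both calls held without any single array. Slbp, which binds the stem-loop of histone mRNA, was at 3003 and 2937, at 3366, 3183 and 3563, and at 2023 and 1786 (0.64 ± 0.15, adjusted p = 0.0204, and 0.82 ± 0.13, adjusted p = 0.00372). Its call in stage 1 NKT was lost without either array of that group or of CD4SP (adjusted p 0.0544 to 0.124), and its second probe set reaching the threshold was not called singly (adjusted p = 0.164 and 0.120). Chaf1b, the middle subunit of the histone chaperone CAF-1, read 457 and 467 in stage 1 NKT, 437, 356 and 402 in Luxoid NKT and 424 and 509 in CD4SP. Its groups overlapped with CD4SP, and it was called in neither comparison (-0.0070 ± 0.16, adjusted p = 0.981, and -0.23 ± 0.15, adjusted p = 0.364).

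The G1/S regulators gave 2 calls of 3 in stage 1 NKT (all genes, 10.8%) and 3 of 3 in Luxoid NKT (11.3%). E2f1, a transcription factor that drives S phase genes, read 489.7 and 400.2 in stage 1 NKT, 477, 342 and 510.1 in Luxoid NKT and 272 and 149 in CD4SP. The groups did not overlap with CD4SP, although the spread was wide (1.13 ± 0.30, adjusted p = 0.0366, and 1.12 ± 0.27, adjusted p = 0.0254). The brighter of the other E2f1 probe sets differed by only 0.25 in stage 1 NKT and 0.44 in Luxoid NKT, and the dimmer by 0.061 and 0.035. With the mean of probe sets, limma did not call E2f1 in stage 1 NKT (0.48, adjusted p = 0.0687). The size of its difference therefore depends on the probe set. Ccne2, cyclin E2, was at 177 and 128, at 218, 203 and 149, and at 72.0 and 74.3. Both CD4SP arrays lay under the intensity of 82, so against that value it was at least 1.83-fold higher in stage 1 NKT (adjusted p = 0.0179) and at least 2.28-fold higher in Luxoid NKT (adjusted p = 0.00277). Only the NKT arrays brought Ccne2 past that intensity, so its calls are not separate support for the direction. Ccne1, cyclin E1, read 498 and 502 in stage 1 NKT, 589.9, 738 and 602 in Luxoid NKT and 412 and 389 in CD4SP, so that the 3 groups did not overlap and Luxoid NKT was the highest. It differed from CD4SP by 0.32 ± 0.16 in stage 1 NKT (adjusted p = 0.227) and by 0.68 ± 0.15 in Luxoid NKT (adjusted p = 0.0148).

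In stage 1 NKT, E2f1 lost its call without either stage 1 NKT array or CD4SP array 2 (adjusted p 0.102 to 0.209), and Ccne2 without stage 1 NKT array 1 or either CD4SP array (0.0914 to 0.136). In Luxoid NKT, E2f1 lost it without Luxoid array 1 or 3 or CD4SP array 2 (0.0617 to 0.194) and Ccne1 without CD4SP array 1 (0.0698) or 2 (0.108), while Ccne2 kept its call.

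**Figure D3:**
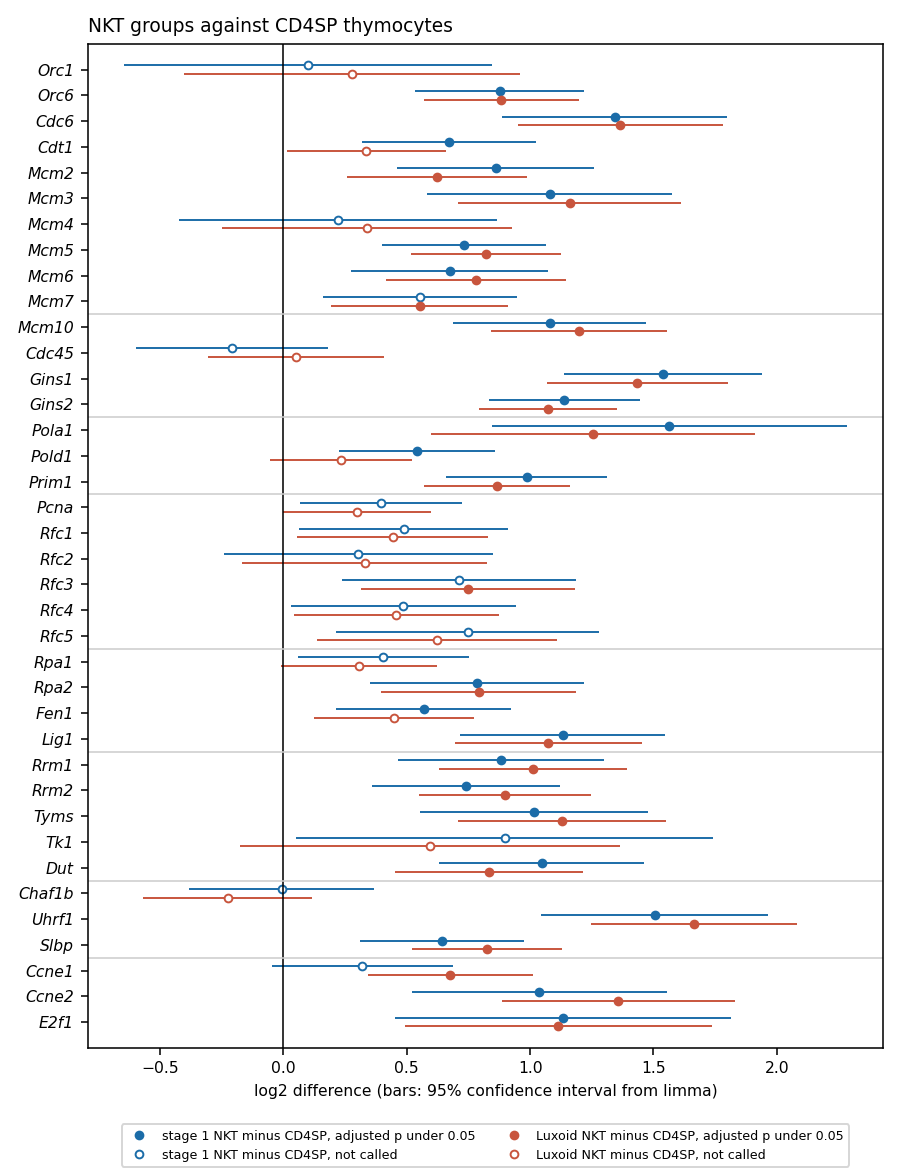
Log2 differences from CD4SP (x axis) with 95% confidence intervals from limma for the 38 genes (rows, lines between roles), in stage 1 NKT (blue) and Luxoid NKT (red), with filled points where the adjusted p is under 0.05. In each comparison 24 points are filled, all to the right of 0, and the clamp and clamp loader genes hold 1 of them.

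Between Luxoid and stage 1 NKT, the comparison that asks what the loss of PLZF does at this stage, 0 of 38 replication genes were called by limma, where 1.55% of all genes tested were (0.901% higher and 0.653% lower). At an unadjusted p under 0.05 there were 3 of 38, against 11.6% of all genes. Their differences were 0.36 ± 0.15 for Ccne1 (adjusted p = 0.398), -0.33 ± 0.14 for Cdt1 (adjusted p = 0.413) and -0.31 ± 0.13 for Pold1 (adjusted p = 0.396). The median difference was 0.0022 (all genes tested, -0.030), with 19 of 38 above 0 and a range from -0.33 to 0.36. The split was not stable: 12 of 38 were above 0 without Luxoid array 3 or with the array number as a block, and 14 with the probe set of highest variance.

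A missed threshold does not show that the groups were alike, so the intervals bound the difference. The 95% confidence interval lay within a 2-fold change either way for 37 of 38 genes and within 1.5-fold for 25. The exception at 2-fold was Tk1, whose interval ran from -1.07 to 0.47. The arrays of the 2 groups did not overlap for 2 genes that were higher in Luxoid NKT, Slbp and Ccne1 (10.1% of all genes tested), and for 7 that were lower (16.6% of all genes): Cdt1, Gins2, Pold1, Prim1, Rpa1, Tk1 and Chaf1b. Apart from the 3 genes above and Tk1 (-0.30 ± 0.34), these differences ran from -0.22 to 0.18. None of the 80 probe sets of the 38 genes that reached the threshold was called when tested singly.

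**Figure D4:**
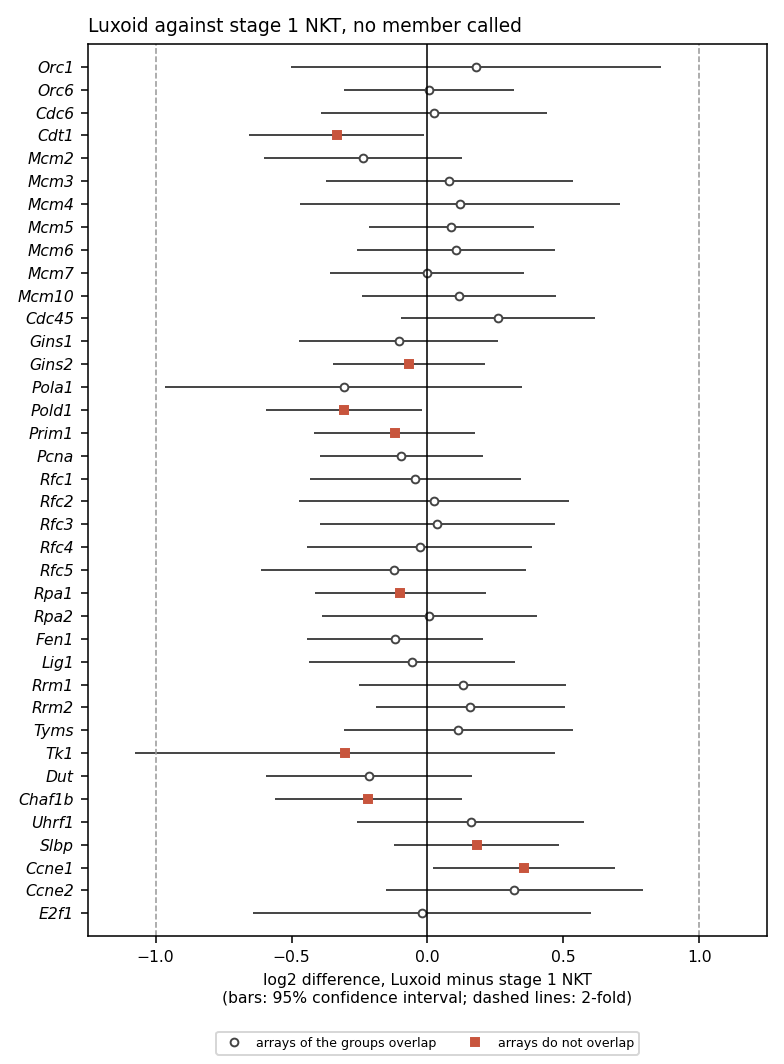
Log2 difference of Luxoid minus stage 1 NKT (x axis) with 95% confidence intervals from limma for the 38 genes, squares marking the 9 genes whose arrays do not overlap between the groups and dashed lines a 2-fold change. The points lie between -0.33 and 0.36, and the interval of Tk1 crosses the line at -1.

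Luxoid array 2 was the lowest of its group in 24 of 38 genes, against 36.1% of all genes tested, with Luxoid array 1 the lowest in 10 and Luxoid array 3 in 4. CD4SP array 2 was the lower of its pair in 26 of 38, against 53.3% of all genes. The median deviation of the 38 genes from their group mean was -0.10 in Luxoid array 2, 0.056 and 0.072 in the other Luxoid arrays, and between -0.038 and 0.038 in the arrays of the other groups. These deviations are small beside the median differences from CD4SP given above.

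Most genes had other probe sets. Of 48 such sets, 42 reached the threshold, in 29 genes. For the genes called in stage 1 NKT against CD4SP, 27 of 28 other sets had the same sign, and for those in Luxoid NKT 29 of 30. The exception in both was a dim Mcm6 set (-0.11 and -0.086), while the remaining Mcm6 set gave 1.50 and 1.30, larger than the set used. Tested singly, 45 of 80 probe sets were called higher and 0 lower in each comparison with CD4SP. Of all probe sets tested, 8.29% were called higher in stage 1 NKT and 9.17% in Luxoid NKT. A set called higher was found in 26 of 38 genes, against 11.3% of all genes in stage 1 NKT and 12.0% in Luxoid NKT.

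Of 38 other replication genes tested, 15 were called higher and 0 lower in stage 1 NKT, and 17 and 0 in Luxoid NKT, with medians of 0.65 and 0.67. Of all genes tested, 10.8% were called higher and 4.08% lower in stage 1 NKT, and 11.3% and 5.51% in Luxoid NKT, and the counts of the next lists stand against the same shares. The largest in stage 1 NKT were Dctpp1, a nucleotide pyrophosphatase (1.46 ± 0.19, adjusted p = 0.00174), Dscc1, part of another clamp loader (1.39 ± 0.20, adjusted p = 0.00250), Hells, a chromatin remodeller (1.36 ± 0.24, adjusted p = 0.00667), and Gmnn, which inhibits Cdt1 (1.34 ± 0.23, adjusted p = 0.00608). In Luxoid NKT they were Brca1, a repair factor (1.51 ± 0.34, adjusted p = 0.0184), Asf1b, a histone chaperone (1.31 ± 0.16, adjusted p = 0.000726), Clspn, a checkpoint adaptor (1.20 ± 0.14, adjusted p = 0.000632), and Wdhd1, which links helicase and polymerase (1.19 ± 0.15, adjusted p = 0.00105).

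Of 24 G1/S control genes, 8 were called higher and 0 lower in stage 1 NKT, and 10 and 1 in Luxoid NKT. Their differences went both ways, with 7 of 24 below 0 in stage 1 NKT and 6 in Luxoid NKT, and medians of 0.52 and 0.56. Cdk6, a G1 kinase (1.35 ± 0.17, adjusted p = 0.00120, and 1.03 ± 0.15, adjusted p = 0.00222), and E2f8, a repressor of E2F targets (1.30 ± 0.19, adjusted p = 0.00304, and 1.49 ± 0.18, adjusted p = 0.000707), were called in both. Ccnd3, cyclin D3, was the gene called lower in Luxoid NKT (-0.78 ± 0.17, adjusted p = 0.0148), with -0.41 ± 0.19 in stage 1 NKT (adjusted p = 0.186). E2f2, an activating E2F, was called higher in Luxoid NKT (1.06 ± 0.16, adjusted p = 0.00222), and read 1573 and 1514 in stage 1 NKT and 2302, 2262 and 2575 in Luxoid NKT. That difference between the NKT groups, 0.62 ± 0.16, was not called (adjusted p = 0.124).

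Mitosis and G2/M genes gave the highest share of these 3 lists, 25 of 29 called higher in stage 1 NKT and 26 of 29 in Luxoid NKT, with 0 lower and medians of 1.12 and 1.23. Cdc25b, a phosphatase that activates mitotic Cdk1, differed by 1.79 ± 0.17 (adjusted p = 0.000273) and 2.07 ± 0.16 (adjusted p = 5.97e-05). Cdk1, the mitotic kinase, differed by 1.74 ± 0.33 (adjusted p = 0.00964) and 1.71 ± 0.30 (adjusted p = 0.00564), and Aurka, a spindle kinase, by 1.44 ± 0.15 (adjusted p = 0.000461) and 1.55 ± 0.14 (adjusted p = 0.000154). Between the NKT groups, limma called 0 genes of these 3 lists, against 1.55% of all genes tested. At an unadjusted p under 0.05 stood 3 of 38 other replication genes, 3 of 24 G1/S genes and 1 of 29 mitosis genes. The share of all genes tested there was 11.6%.

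**Figure D5:**
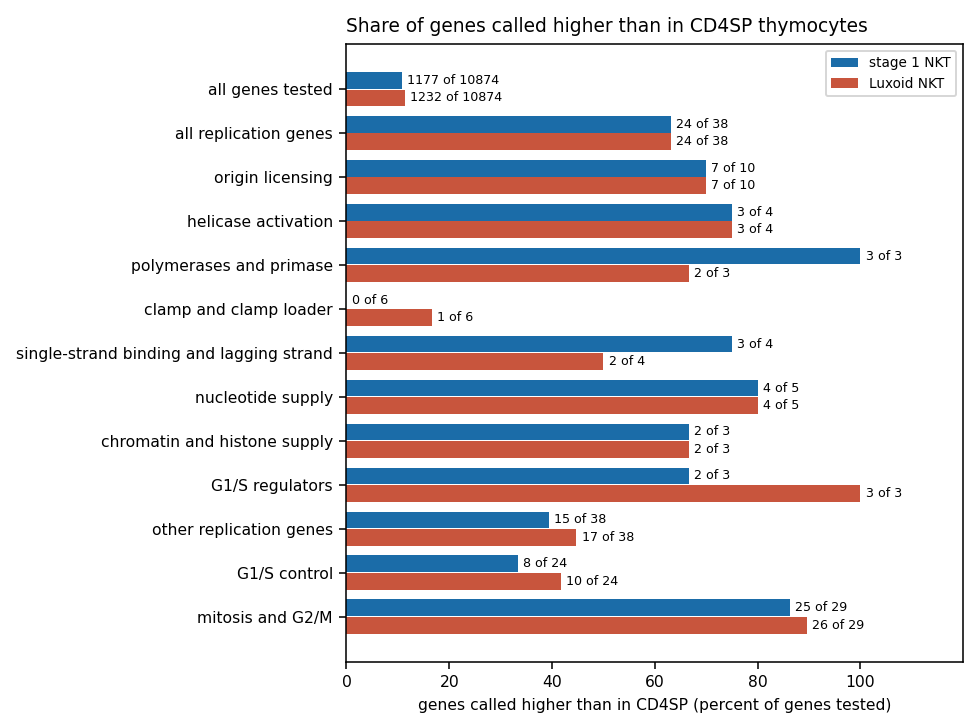
Percent of tested genes called higher than in CD4SP (x axis, from 0) in stage 1 NKT (blue) and Luxoid NKT (red), for all genes tested, the 38 replication genes, each of their roles and 3 other lists, with counts beside the bars. All genes stand at 10.8% and 11.3%, the 38 replication genes at 63.2% in both, and the clamp and clamp loader at 0 and 1 of 6.

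Some markers of other thymus cells moved with the comparison too. Of 9 markers of double-positive thymocytes, 8 had a probe set and 5 were tested. Called lower than in CD4SP were 3 in stage 1 NKT and 2 in Luxoid NKT, against 4.08% and 5.51% of all genes tested. The summed intensity of the 8 was 2498 to 2560.4 in stage 1 NKT, 2626 to 3159 in Luxoid NKT and 3562 to 3663 in CD4SP. Most of that sum was Themis and Cd1d1. Themis read 1541 and 1562 in stage 1 NKT, 1925, 1699 and 1946 in Luxoid NKT and 1978 and 1843 in CD4SP. Cd1d1 read 722 and 638, then 701, 535 and 663, and 681 and 771 in CD4SP. Both overlapped with CD4SP in Luxoid NKT. Dntt, which adds bases at receptor joints, read 73.7 and 46.4, then 98.0, 51.1 and 119.8, and 461 and 527 in CD4SP, and Cd8b1 61.9 and 67.6, then 83.4, 43.8 and 123, and 223 and 268. Rag1, Rag2 and Arpp21 were under 82 in every array. Cd8a read 82.3 and 93.6, then 144, 184 and 152, and 135 and 148 in CD4SP. It was higher in Luxoid than in stage 1 NKT (0.86 ± 0.16, adjusted p = 0.0342). The part of these cells in the replication differences was not tested.

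Double-negative markers summed to 357 to 435 in the NKT arrays and 456 to 545 in CD4SP, with Ptcra at 19.0 to 27.2 everywhere and 0 of the 3 tested called higher in an NKT group. Il2ra, which marks part of this stage, was called lower in Luxoid NKT, at 62.3, 41.1 and 60.5 against 148 and 185 in CD4SP (at least 2.02-fold lower against the threshold of 82, adjusted p = 0.00107). All 6 myeloid markers and all 3 erythroid markers with a probe set were under 82 in every array. Of the B cell markers, Cd79b was higher and Cd79a lower in both NKT groups, Ms4a1 was at 14.3 to 17.3, and the 4 with a probe set summed to 302 to 412 in the NKT arrays and 292 to 303 in CD4SP. Epithelial markers summed to 342 to 516 in the NKT arrays and 427 to 512 in CD4SP, with 0 of 2 tested genes called. The part of these markers in the result was not tested.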

How the data were processed

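RNA from sorted thymocytes of 7 pooled samples was amplified, labelled and hybridised to single-colour Affymetrix arrays, per the labels' protocols. The deposited intensities, on a linear scale from 3.08 to 20875, were made by the authors with RMA and Affymetrix Expression Console, per the submitters' processing notes. RMA equalises the arrays by quantiles, so a change in total RNA per cell cannot be seen. Log2 was taken first. Of 45037 probe sets, 34945 had 1 gene symbol in the platform annotation, and none was named from the 932 with several. No 2 columns were identical.

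With limma 3.58.1 (lmFit, eBayes; R 4.3.3), 1 mean per group was fitted over all 7 arrays, with 4 residual and 4.49 prior degrees of freedom, for 3 comparisons. Each was adjusted by Benjamini-Hochberg over the 10874 genes that reached 82 in 2 or more arrays. The fit was run on simulated data with noise drawn independently for each array. Recovery was required there only at a log2 difference of 2. That does not check the fit for arrays that deviate together or for smaller differences. The gene list and the other lists were chosen with earlier results of these data known. Arrays are given for genes called in any comparison or not overlapping between the NKT groups, other genes by range. Other lists are named by the largest called differences.

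Arrays share replicate numbers in their titles. Same-numbered arrays deviated together in 6 of 6 pairs across groups (r = 0.334 to 0.491, some equal by construction in groups of 2; other pairs -0.491 to 0.108), so the numbers were taken to pair the arrays. Unless another fit is named, values are from the fit without the pairing, and those of the fit with the array number as a block stand beside them where they change a call. Alternatives were 11 other settings and leaving out each array.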

Additional observations from a re-analysis of the deposited data

How the results depend on the processing

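No alternative called a replication gene lower than in CD4SP or different between the NKT groups. In the other 11 settings and with all probe sets tested singly (added after the data were seen), 20 to 27 genes were called higher in stage 1 NKT against CD4SP and 21 to 26 in Luxoid NKT. Leaving out 1 array gave 8 to 27 and 12 to 24. Of the 24 calls, 18 and 19 held in each of the 11 settings that tested the gene. Those lost in 1 or more were E2f1, Fen1, Slbp, Cdt1, Pold1 and Tyms in stage 1 NKT (adjusted p up to 0.741) and Mcm7, Tyms, Slbp, Rfc3 and Mcm2 in Luxoid NKT (up to 0.905), both highest values being those of another Tyms probe set. Called in every setting that tested them and without any array were 8 genes in stage 1 NKT (Cdc6, Gins1, Gins2, Lig1, Mcm10, Orc6, Prim1 and Uhrf1) and 11 in Luxoid NKT (these and Ccne2, Mcm5 and Rrm1). Over all genes, calls kept in every fit were not counted. Calls gained in 1 or more of the 11 settings were those of Mcm7, Rfc1, Rfc3, Rfc5, Rpa1, Pcna and Cdc45 in stage 1 NKT. In Luxoid NKT they were those of Fen1, Rfc4, Pcna and Cdc45. With the probe set of highest variance, Cdc45 turned to 0.84 in stage 1 NKT (adjusted p = 0.0258), since another set is read.

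The median difference of Luxoid from stage 1 NKT was -0.0500 with the replicate block, -0.0493 with the mean of probe sets (37 genes left), -0.0793 with the probe set of highest variance, and -0.0500 to 0.0727 without 1 array. Against CD4SP the median in stage 1 NKT was 0.69 with the mean of probe sets, 0.91 with the highest variance, 0.68 after quantile normalization again and 0.70 to 0.82 without 1 array. In Luxoid NKT it was 0.73 with the replicate block, 0.66 with the mean of probe sets, 0.73 after quantile normalization and 0.71 to 0.84 without 1 array. With the block, all genes called in stage 1 NKT against CD4SP rose from 1621 to 2616, the replication genes called were 26 in stage 1 NKT and 23 in Luxoid NKT, and no call of a replication gene changed beyond Mcm7, Rfc5 and Rfc3, given above. A stricter filter, an intensity of 306.7, left 33 of the 38 genes. Where a group is left with 1 array, that array is assumed to vary like the others. The cause of these changes was not tested. The small number of arrays, and dim probe sets near 82, limit what can be seen.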
